A study of Mus musculus with 2 samples.

Results

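The 9 genes described here encode proteins of central nervous system myelin or, for Myrf, the factor that switches their genes on: Mbp, Mobp, Mog, Mag, Cnp, Mal, Cldn11, Opalin and Myrf. They were found by gene symbol among 55536 annotated mouse genes, and together they have 48 annotated transcripts, of which 36 are protein-coding. RNA came from hippocampal tissue of male B6CASTF1/J mice, first-generation hybrids of C57BL/6J and CAST/EiJ, at 36 days of age. There is a single group with 2 libraries, called replicate 1 and replicate 2, each from its own tissue sample, so the study holds no treatment or genotype comparison. The tissue term in the labels is layer of hippocampus, and the layer or layers taken are not stated.

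Oligodendrocytes wrap axons with sheets of membrane. Where the sheets are compacted, Mbp and Mobp lie on their cytoplasmic faces, while Mag and Mog sit on surfaces that face the axon and the outside of the sheath. Several of these genes make more than 1 protein through alternative exons or starts, and Mbp also carries an upstream start, Golli, that is used outside oligodendrocytes too. In mice of this age hippocampal myelin is still being laid down.

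Expression per gene is given as TPM, an abundance scaled to library size and transcript length, with the mean ± SD over the 2 libraries. The libraries held 28665109 expected counts in replicate 1 and 29633722 in replicate 2, where an expected count is an estimated number of reads. All 9 genes were above 1 TPM in both libraries, and their counts were whole numbers in the gene table, so none shared reads with another gene there. Transcript shares are percentages of the TPM of a gene, and they are given from a first transcript table, made from the same alignment as the gene levels, and from a second one that was quantified separately from the reads. Markers of other cell types, 8 per list, were all above 1 TPM: those of neurons (led by Camk2a, Snap25 and Slc17a7), astrocytes (Slc1a2, Aldoc and Slc1a3), microglia (among them Csf1r and C1qb) and endothelium (Ly6c1, Cldn5 and Itm2a), with 0 of 8 apart in each. Apart means an adjusted p under 0.05 and at least 1.5-fold between the libraries, by the test described below. Of all genes tested, 1.89% were apart. Most choroid plexus markers, in a list led by Ttr, Enpp2 and Kl, stood apart between the libraries, although Kl did not. Ttr was at 3.62 TPM in replicate 1 and 179 TPM in replicate 2. Of the 11 genes of that list, 9 were apart, all lower in replicate 1. The summed level of the 11 genes was 63.6 TPM in replicate 1 and 272 TPM in replicate 2, of which Enpp2 held 52.4 and 75.4 TPM. In whole tissue, fewer cells of a type and less RNA per cell cannot be told apart.

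Mbp, the basic protein that holds the cytoplasmic faces of compact myelin together, led the group. It reached 723 TPM in replicate 1 and 729 TPM in replicate 2 (mean 726 ± 4.49, SD, n = 2), on 26703 and 27471 expected counts. This placed it at rank 31 and rank 32 among 21951 annotated protein-coding genes. Mbp alone made up 52.6% and 55.9% of the summed TPM of the 9 genes, which was 1373 in replicate 1 and 1305 in replicate 2. Mobp, a small basic protein of compact myelin, came next with 232 and 213 TPM (222 ± 13.1, SD, n = 2), so Mbp was 3.12 and 3.42 times as abundant per transcript.

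The 4 genes that followed lay within a narrow band. Cnp, a 2′,3′-cyclic nucleotide phosphodiesterase that keeps cytoplasmic channels in the sheath open, was at 111 and 97.1 TPM (104 ± 9.67). Mag, a sialic acid-binding adhesion protein on the membrane next to the axon, was at 97.9 and 77.9 TPM (87.9 ± 14.2). Cldn11, the claudin that forms the tight junctions of central myelin, was at 90.7 and 80.5 TPM (85.6 ± 7.19). Mal, a raft-associated membrane protein of the sheath, was at 69.4 and 63.5 TPM (66.4 ± 4.21; SD, n = 2 for each gene). Cnp was above Mag within each library, although their ranges over the libraries overlapped. Mag was above Cldn11 in replicate 1 and below it in replicate 2, so that pair cannot be ordered. The ranges of the other 6 of the 8 neighbouring pairs did not overlap.

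The remaining 3 genes were scarcer. Mog, an immunoglobulin-type protein on the outermost lamella, was at 30.3 and 26.8 TPM (28.5 ± 2.51). Myrf, the membrane-tethered transcription factor whose cleaved part enters the nucleus of differentiating oligodendrocytes, was at 12.2 and 12.1 TPM (12.1 ± 0.0919). Opalin, a sialylated transmembrane protein of oligodendrocytes, was lowest at 7.32 and 4.57 TPM (5.95 ± 1.94; SD, n = 2 for each gene). Per transcript, Mbp stood 59.3 and 60.5 times above Myrf in replicate 1 and replicate 2. The 9 genes together held 0.309% and 0.3% of the TPM of protein-coding genes.

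**Figure D1:**
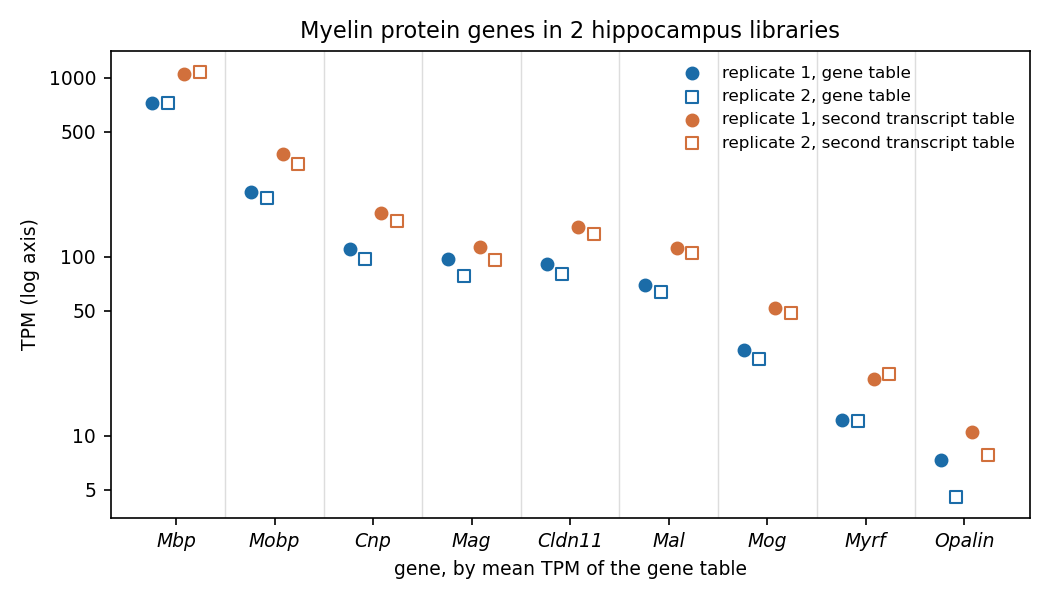
TPM (log axis) of the 9 myelin protein genes in order of their mean in the gene table, with replicate 1 as filled circles and replicate 2 as open squares; blue marks the gene table and orange the transcript TPM summed per gene in the second table. Mbp lies highest at 723 and 729 TPM and Opalin lowest at 7.32 and 4.57 TPM, and Mag is the gene whose orange and blue points lie closest together.

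The second transcript table gave higher TPM for all 9 genes. The gene-table TPM divided by the second-table TPM had a median over the 9 genes of 0.616 in replicate 1 and 0.604 in replicate 2, against 0.591 and 0.58 over the 18270 genes with enough counts, so the offset applied to the whole table. Mag departed from it, with ratios of 0.863 and 0.809. In the second table Mag was at 113 and 96.3 TPM, against 113 and 105 TPM for Mal and 148 and 134 TPM for Cldn11, so that Mag lay below Cldn11 in both libraries and its values overlapped those of Mal. The first table assigned part of Mag to a 635-base transcript, described below, that had no reads in the second.

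The libraries were then compared gene by gene, replicate 1 over replicate 2, with an exact two-sided binomial test on TMM-scaled counts. The p-values were adjusted by the Benjamini-Hochberg method over the 18270 genes whose expected counts averaged 10 or more. The test compares these libraries, not conditions. A gene was called apart at an adjusted p under 0.05 and a difference of at least 1.5-fold. Of the 9 genes, 1 was apart, Opalin, while 1.89% of all genes tested were apart in either direction and 0.662% were apart and higher in replicate 1. Opalin had 297 expected counts in replicate 1 against 191 in replicate 2, and was 1.6-fold higher in replicate 1 (95% interval 1.33 to 1.93, adjusted p = 1.24e-05, exact binomial test). The intervals cover counting error only.

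Smaller differences in the same direction were found in other genes of the group. At the adjusted p alone, 6 of the 9 genes were higher in replicate 1 and 0 were lower, where 4.73% of all genes tested were higher in replicate 1 and 11.4% passed in either direction. Mag was 1.19-fold higher in replicate 1 (interval 1.13 to 1.25, adjusted p = 6.21e-10), on 3358 and 2905 counts. Cnp was 1.13-fold higher (1.08 to 1.17, adjusted p = 4.71e-08), Cldn11 1.1-fold (1.05 to 1.16, adjusted p = 0.00146), Mal 1.07-fold (1.02 to 1.12, adjusted p = 0.0261) and Mobp 1.06-fold (1.03 to 1.09, adjusted p = 0.000842), all from that exact test. With spike-in totals as the scale, Mobp and Mal no longer passed (adjusted p = 0.113 and 0.236, exact binomial test), and Mbp passed as lower in replicate 1 (log2 ratio -0.04, adjusted p = 0.0192). With DESeq2 size factors Mal did not pass (adjusted p = 0.0695).

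Mog, with 1000 counts in replicate 1 and 926 in replicate 2, did not pass the exact binomial test at 1.11-fold (1.01 to 1.22, adjusted p = 0.132). Mbp and Myrf, the most abundant gene and the regulator, did not pass (adjusted p = 1 and 0.914, exact binomial test). Their intervals for replicate 1 over replicate 2 were 0.983 to 1.02 for Mbp and 0.912 to 1.07 for Myrf. The median log2 ratio of the 9 genes was 0.14, against 0.001 over all genes tested.

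**Figure D2:**
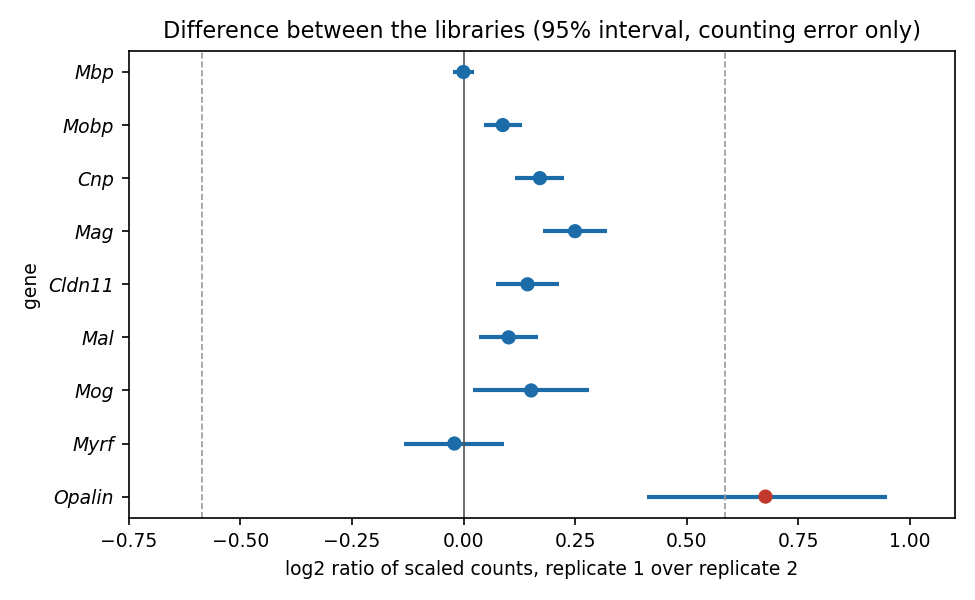
Log2 ratio of scaled counts, replicate 1 over replicate 2, for each gene (points) with its 95% interval (bars); dashed lines mark 1.5-fold and the red point is the gene called apart. Opalin lies beyond the dashed line, while the intervals of Mbp and Myrf include 0.

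Other genes of the lineage were read beside them, in lists chosen with earlier results of these data known. Of 24 other myelin and mature oligodendrocyte genes, all were above 1 TPM in both libraries and 0 were apart. At the adjusted p alone 8 were higher in replicate 1 and 0 in replicate 2, and the median log2 ratio was 0.09. Beside this and the lists that follow, 1.89% of all genes tested were apart. At the adjusted p alone, 4.73% of them were higher in replicate 1 and 11.4% passed in either direction. Tppp, a tubulin-polymerising protein of oligodendrocytes, led this list with 111 and 107 TPM, followed by Trf (transferrin; 95.5 and 79.95 TPM) and Nfasc (neurofascin; 75.6 and 76.2 TPM). Trf was 1.2-fold higher in replicate 1 (adjusted p = 1.55e-10, exact binomial test), but some of its reads were shared with another gene. Of 13 genes of myelin lipid synthesis, 2 were higher in replicate 1 at the adjusted p alone and 0 lower, with a median log2 ratio of 0.08. Of these 2, Aspa is also in the list of 24 and is counted there too. The most abundant genes of the lipid list were Hmgcs1, an enzyme of sterol synthesis (93.7 and 85.8 TPM), and Fasn, the fatty acid synthase (73.7 and 75.6 TPM).

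Precursor and regulator genes differed in both directions between the libraries. Of 11 genes of oligodendrocyte precursors and newly formed cells, 0 were apart, and at the adjusted p alone 1 was higher in replicate 1 and 2 in replicate 2. Pdgfra, the growth factor receptor of precursors, was at 18.8 and 15.9 TPM, 1.12-fold higher in replicate 1 (adjusted p = 0.0149, exact binomial test). Gpr17, a receptor of cells about to mature, was at 17.4 and 20.6 TPM, 1.21-fold higher in replicate 2 (adjusted p = 8.26e-08, exact binomial test), and Ptprz1 was at 58.6 and 60.9 TPM. Among 12 lineage transcription factors and Myrf partners, 0 were apart, 1 was higher in replicate 1 and 2 were higher in replicate 2 at the adjusted p alone. Olig1 was at 52.5 and 50.5 TPM, Sox8 at 23.2 and 22.7 TPM and Zfp24 at 15.5 and 17.9 TPM. The median log2 ratio was -0.06 for the precursor list and -0.02 for the transcription factors. Differences between the lists were not tested.

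Schwann cells, which myelinate peripheral nerve, left little trace. Pmp2, a lipid-binding protein of peripheral myelin, and Foxd3 had 0 counts in both libraries. Drp2 (20.8 and 19.2 TPM) and Pmp22 (8.16 and 8.69 TPM) were the 2 of 9 genes of that list above 1 TPM, and Egr2 was at 0.77 and 0.73 TPM. Mpzl2 was the 1 gene of the list called apart, with 5 counts in replicate 1 and 28 in replicate 2. The paralogs of Cldn11 and Mal were led by Mal2 (66.9 and 56.3 TPM), Cmtm5 (33.7 and 27.8 TPM) and Cmtm4 (24.9 and 23.5 TPM). Of the 13 tested genes of that list, 10 had a higher scaled count in replicate 1 and the median log2 ratio was 0.2, against 0.14 for the 9 myelin protein genes. That median rests on low counts: it is the value of Plp2 (58 and 52 counts) and Cldn14 (19 and 17 counts). Neither passed the exact binomial test (adjusted p = 0.795 and 0.921). At the adjusted p alone 2 were higher in replicate 1, Mal2 (1.16-fold, adjusted p = 4.92e-09, exact binomial test) and Cldn5, and 1, Cldn2, was lower. Endothelial markers, which also include Cldn5, had a median log2 ratio of 0.13, with 3 of 8 higher in replicate 1 and 1 lower at the adjusted p alone. Small differences toward replicate 1 were therefore also seen outside the oligodendrocyte lists. The median was 0.02 for neurons, 0.01 for microglia and -0.04 for astrocytes. Myrfl, the paralog of Myrf, had 5 and 8 counts. Cldn2, a claudin of choroid plexus epithelium, was the 1 of 13 tested genes of that list apart, with 4 counts in replicate 1 and 43 in replicate 2, alongside the choroid plexus markers. Whether the tissue that carried those markers bears on the small differences of the myelin genes was not tested.

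Genes linked to myelin inhibitors were read as well, and levels in whole tissue do not place them on axons. Of 11 receptors and partners of myelin inhibitors, 9 were above 1 TPM in both libraries and 0 were apart. Rtn4, which encodes the inhibitor Nogo, was at 186 and 175 TPM, Lingo1, a subunit of the Nogo receptor complex, at 102 and 93.0 TPM, and B4galnt1, which makes the gangliosides that Mag binds, at 46.5 and 45.4 TPM. Of 9 RNA-binding proteins studied in the splicing or transport of myelin mRNAs, 0 were apart and the median log2 ratio was -0.05. Hnrnpk was at 284 and 265 TPM, Hnrnpa2b1, which binds the transport signal of Mbp mRNA, at 211 and 216 TPM, and Qk, the quaking protein that regulates splicing in oligodendrocytes, at 162 and 169 TPM.

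Mbp (chromosome 18, 82475146 to 82585637, mm10, plus strand) has 16 annotated transcripts. The classic forms start at exon I and differ by exon II (78 bases), exon V (33 bases) and exon VI (123 bases). In mouse, forms with exon II are known to be more common early in myelination and forms without exons II and VI in the adult. The transcript that lacks both, Mbp-211, encodes 128 residues and was the leading form in both libraries and both tables. It held 71.9% of Mbp TPM in replicate 1 and 67.5% in replicate 2 in the first table, and 33.7% and 34.1% in the second. The tables therefore differed by more than the libraries did.

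Mbp-212, which adds exon VI and encodes 169 residues, was the second form of the first table. It held 10.4% and 11.6% in the first table and 13.6% and 12.2% in the second. Mbp-209, with exons II and VI and 195 residues, held 9.21% and 9.71% in the first table and 1.35% and 5.2% in the second. Its annotated transcript is only 638 bases long, and it took 2.76% and 3% of Mbp expected counts. Mbp-215, with exon II alone and 154 residues, was at 0 in both libraries in the first table and at 14.3% and 12.9% in the second. Mbp-216, which has exons II and VI but not V, held 4.11% and 2.55% in the first table and 2.24% and 1.28% in the second.

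**Figure D3:**
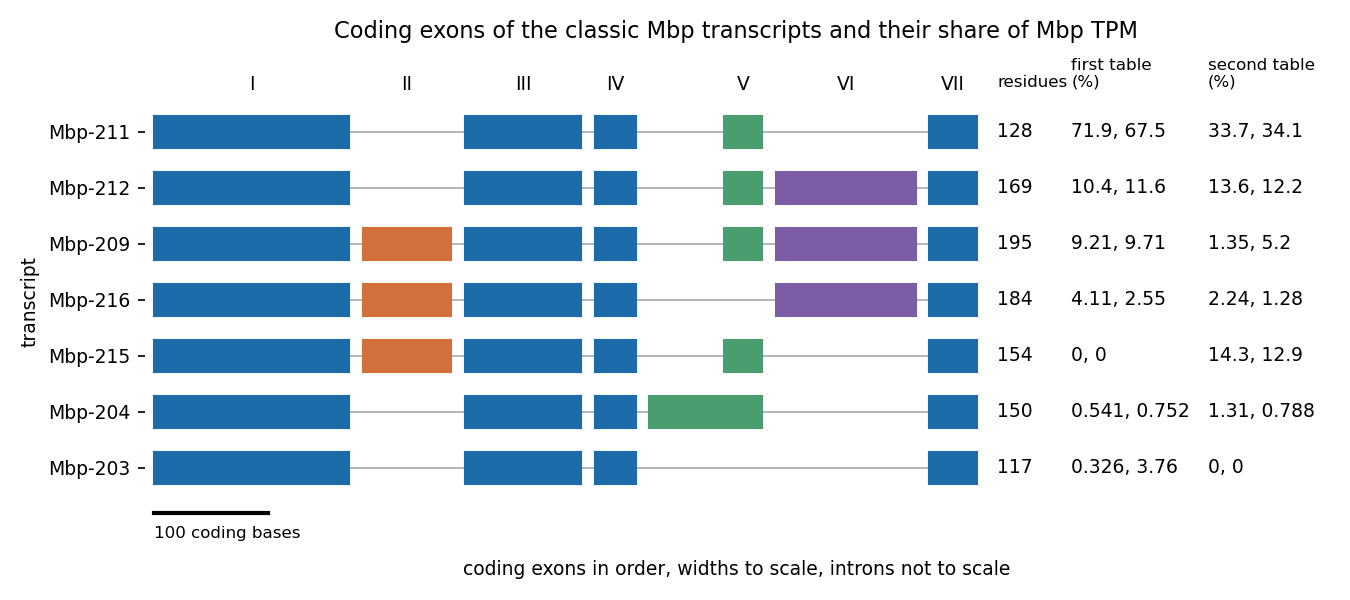
Coding exons I to VII of 7 classic Mbp transcripts, drawn to scale by coding bases, with exon II in orange, exon V in green and exon VI in purple; the numbers give the encoded residues and the share of Mbp TPM (%) in replicate 1 and replicate 2 in each transcript table. Mbp-211, without exons II and VI, has the largest share in both tables (71.9, 67.5 and 33.7, 34.1), and Mbp-215 has 0 in the first table only.

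Exon by exon, exon VI was less variable between the libraries than exon II. Among coding transcripts that span it, those with exon VI held 24.7% of TPM in replicate 1 and 24.9% in replicate 2 (24.8 ± 0.0809, SD, n = 2) in the first table and 18.6% and 19.9% in the second. Exon II was carried by 13.8% and 12.7% (13.2 ± 0.75) in the first table and by 18.5% and 20.1% in the second, although different transcripts carried it. The tables lay furthest apart for exon V. Its 33 bases were carried by 95.4% and 93% in the first table and by 67.4% and 68.2% in the second. The spanning transcripts include Mbp-201, a transcript from the Golli start that has none of exons II, V and VI. It held 0.05% and 0.4% of Mbp TPM in the first table and 29.3% and 29.4% in the second. It therefore lowers the exon shares of the second table far more than those of the first. Shares among the classic forms alone were not computed. For each of these exons the libraries lay closer to each other than the tables did.

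The tables also disagreed on Golli. Transcripts from the upstream start, 79384 bases before the classic start, held 3.06% and 3.68% of the TPM of coding Mbp transcripts in the first table (3.37 ± 0.44, SD, n = 2), against 32.6% and 32.9% in the second. The difference lay in Mbp-201, which held 0.05% and 0.4% in the first table and 29.3% and 29.4% in the second. Of its 2492 bases, 1945 are also exon in classic or non-coding Mbp transcripts and 547 are not. Mbp-205 ends before exon II, shares 281 of its 4797 bases with those transcripts and has 4516 of its own. Both tables placed Mbp-205 alike, with 2.89% and 3.19% in the first and 3.06% and 3.4% in the second. Mbp-208 was at 0.1% and 0.07% in the first. The share of Golli starts therefore depended on the table, while the part that rests on Mbp-205 did not.

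Mobp (chromosome 9, 120149707 to 120181484, plus strand) makes several small proteins that share their first 68 codons and then switch exon. The last coding exons of the 81-residue and 170-residue forms are shown because this switch separates them; the stop codon of the shorter form is in capitals.
Mobp 81-residue form, end of the coding sequence (chr9:120173151-120173190, plus strand): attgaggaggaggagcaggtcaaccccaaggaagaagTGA
Mobp 170-residue form, first 60 bases of the last coding exon (chr9:120168223-120168282, plus strand): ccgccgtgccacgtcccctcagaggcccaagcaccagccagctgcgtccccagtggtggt
The short end adds 37 coding bases to the shared 206, and the long end adds 304.

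The 81-residue form dominated Mobp in both libraries and both tables. Summed over its 4 transcripts it held 79.1% and 78% of Mobp TPM in the first table (78.6 ± 0.825, SD, n = 2) and 86.7% and 83.1% in the second. Most of it was Mobp-204, at 58.8% and 59% in the first table and 57.9% and 63.5% in the second. Mobp-204 carries the 81-residue reading frame but is annotated as a target of nonsense-mediated decay, because further exons follow its stop codon. Without it, the 81-residue form held 49.3% and 46.3% of the remaining Mobp TPM in the first table and 68.3% and 53.9% in the second. The other transcripts with this frame were Mobp-202 (8.66% and 8.16%), Mobp-206 (9.78% and 7.07%) and Mobp-203 (1.88% and 3.78%) in the first table. The exons of Mobp-204 overlap those of Gm38642, a non-coding gene on the same strand at 1.31 and 1.49 TPM, over 79 bases.

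The longer Mobp form was a minor one. Mobp-201, with 170 residues, held 7.04% and 8.46% in the first table and 7.86% and 10.7% in the second. Mobp-207, a 498-base transcript with 69 residues, held 12.1% and 10.8% in the first table but 5.47% and 6.19% in the second, and 2.47% and 2.2% of Mobp expected counts.

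Mag (chromosome 7, 30899176 to 30914873, minus strand) makes S-MAG and L-MAG, which differ in their cytoplasmic tails. Exon 12, of 45 bases, holds a stop codon: transcripts that include it encode S-MAG, and those that skip it read on into exon 13 and encode L-MAG. In rodents L-MAG is prominent while central myelin forms and S-MAG is the more abundant form later. Both endings are given from the junction to the stop codon, which is in capitals.
S-MAG, in exon 12 (chr7:30900364-30900396, minus strand): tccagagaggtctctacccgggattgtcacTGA
L-MAG, in exon 13 (chr7:30899531-30899698, minus strand): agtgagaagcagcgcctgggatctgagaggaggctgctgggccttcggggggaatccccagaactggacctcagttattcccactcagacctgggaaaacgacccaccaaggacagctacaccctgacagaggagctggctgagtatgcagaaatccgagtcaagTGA
After the junction S-MAG has 10 residues and L-MAG 55, for totals of 582 and 627.

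Exon 12 was mostly included. Among coding transcripts that span it, those with the exon held 78.9% and 77% of TPM in the first table (77.9 ± 1.32, SD, n = 2) and 77% and 72.9% in the second. On this measure the tables lay close together, unlike on shares of all Mag TPM. Both rest on an annotation in which Mag-207, the complete L-MAG transcript, ends with its stop codon at base 30899531. The S-MAG transcripts Mag-203 and Mag-201 run on to bases 30899176 and 30899183. Reads in that stretch could therefore be assigned only to S-MAG, and the effect on the exon 12 share was not tested. S-MAG transcripts held 52.1% and 53.2% of all Mag TPM in the first table and 70.9% and 66.6% in the second. L-MAG (Mag-207) held 13.4% and 15.2% in the first and 20% and 23.5% in the second. The first table split S-MAG between Mag-203 (40.9% and 53.2%) and Mag-201 (11.2% and 0%), which encode the same protein, so the libraries differed by 12.3 points for Mag-203 and by less than 2 points for the sum. Mag-205, a 635-base transcript with an incomplete coding sequence, held 23.1% and 19.8% in the first table and 0 in the second. The non-coding Mag-202, with a retained intron, held 1.74% and 2.5% in the first and 5.95% and 7.9% in the second, and Mag-208 5.36% and 6.64% in the first and 1.94% and 0.722% in the second.

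Mog (chromosome 17, 37010743 to 37023398, minus strand) was read as a single form in the first table. Mog-201, with 247 residues, held 100% in both libraries there, and 95.4% and 91.7% in the second table. The rest of the second table was Mog-202, at 4.65% and 8.29%, which lacks exon 6 and with it 39 residues in frame. The exon that the tables disagree on reads as follows.
Mog exon 6 (chr17:37012336-37012452, minus strand): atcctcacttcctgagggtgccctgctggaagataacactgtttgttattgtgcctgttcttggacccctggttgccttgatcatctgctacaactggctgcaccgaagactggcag

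Mal (chromosome 2, 127633226 to 127656695, minus strand) and Cldn11 (chromosome 3, 31149920 to 31164324, plus strand) showed no alternative form. Cldn11 has a single annotated transcript, with 207 residues. In Mal, Mal-202 (153 residues) held 100% in both libraries and both tables. Mal-201, which skips exon 2 and 56 residues in frame, was at 0 counts everywhere. The upper bound of its TPM in the first table was 1.1 in replicate 1 and 1.03 in replicate 2. Mal-202 was at 69.4 and 63.5 TPM there, so a low level of Mal-201 is not excluded. The exon that was always counted as included is shown.
Mal exon 2 (chr2:127640221-127640388, minus strand): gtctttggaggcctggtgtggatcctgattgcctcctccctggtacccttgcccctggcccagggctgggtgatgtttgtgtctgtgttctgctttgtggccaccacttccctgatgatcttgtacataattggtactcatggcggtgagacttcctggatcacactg

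Cnp (chromosome 11, 100574904 to 100591729, plus strand) has alternative first exons in the annotation. CNP1 and CNP2 are its known proteins, and CNP2 carries extra residues at its start because translation begins at an upstream codon in the first exon of the longer-spanning transcript. Cnp-201 starts at the upstream site and encodes 420 residues. Cnp-204 starts 620 bases further downstream and is annotated as non-coding, but its longest open reading frame has 400 codons and is identical to the end of the Cnp-201 frame. That frame begins at codon 21 of Cnp-201, and 1 other ATG precedes it in Cnp-204. Both start codons are in capitals in the stretch of Cnp-201 that joins its exons, from base 100575066 to base 100576295 of chromosome 11.
Cnp-201, first codons (plus strand, spliced): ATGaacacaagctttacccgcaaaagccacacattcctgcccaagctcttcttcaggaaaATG

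Both tables assigned reads to both transcripts. The first exon of Cnp-204 is 1382 bases long (100575524 to 100576905) and includes bases that are intron in Cnp-201. Use of a separate start was not tested. Cnp-201 held 60.8% and 63.5% in the first table (62.1 ± 1.89, SD, n = 2), and Cnp-204 held 38.8% and 36.1%. In the second table the order was the other way round, with 43.9% and 45.3% for Cnp-201 and 55.8% and 54.4% for Cnp-204. Cnp was thus the 1 of the 8 genes with several transcripts whose leading transcript differed between tables. The libraries differed by at most 2.75 points in either table. Dnajc7, on the opposite strand at 105 and 105 TPM, overlaps the exons of Cnp-202 (0.39% and 0.47%) over 154 bases and those of Cnp-201 and Cnp-204 over 0 bases.

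Opalin (chromosome 19, 41061710 to 41077113, minus strand) has a coding transcript, Opalin-201 (143 residues), and Opalin-202, which retains an intron. Opalin-201 held 75.5% and 79.5% in the first table (77.5 ± 2.75, SD, n = 2) and 50.3% and 61.5% in the second. In the first table both transcripts were higher in replicate 1: Opalin-201 was at 5.53 and 3.63 TPM and Opalin-202 at 1.79 and 0.94 TPM. In the second table Opalin-201 was at 5.26 TPM in replicate 1 and 4.77 TPM in replicate 2, and Opalin-202 at 5.19 and 2.99 TPM. Most of the second-table difference thus lay in the transcript with the intron. Summed over transcripts, Opalin was 1.43-fold higher in replicate 1 there (adjusted p = 0.00102, exact binomial test), under the 1.5-fold minimum.

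Myrf (chromosome 19, 10208272 to 10240748, minus strand) was mostly its longest form. Myrf-201, with 1138 residues, held 75.6% and 76.8% in the first table (76.2 ± 0.855, SD, n = 2) and 62.1% and 60.6% in the second. Myrf-202, with 937 residues, held 16.3% and 12.3% in the first and 22.8% and 19.5% in the second. It lacks 3 exons near the start of the coding sequence, of 264, 62 and 280 bases, and its exon after exon 19 begins 3 bases earlier. Exon 3, the first of those 3, was included by 82.2% and 86.1% of the TPM of coding transcripts that span it in the first table and by 73.2% and 75.7% in the second. The bases at that second difference are shown, with the 3 added bases in capitals.
Myrf-201, junction of exons 19 and 20 (minus strand, spliced): ggccatgtgcccatggtccagccagagctt
Myrf-202, the same junction (minus strand, spliced): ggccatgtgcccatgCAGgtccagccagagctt

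Myrf exon 19, of 81 bases (chr19:10215274-10215354), was carried by every coding transcript with reads in the first table (100% and 100%) and by 94% and 93.5% of spanning TPM in the second. The remainder was Myrf-203, an incomplete transcript at 0 in the first table and 5.42% and 5.52% in the second. Transcripts with a retained intron, Myrf-204 and Myrf-206 together, held 8.11% and 10.9% in the first table and 9.69% and 14.4% in the second.

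**Figure D4:**
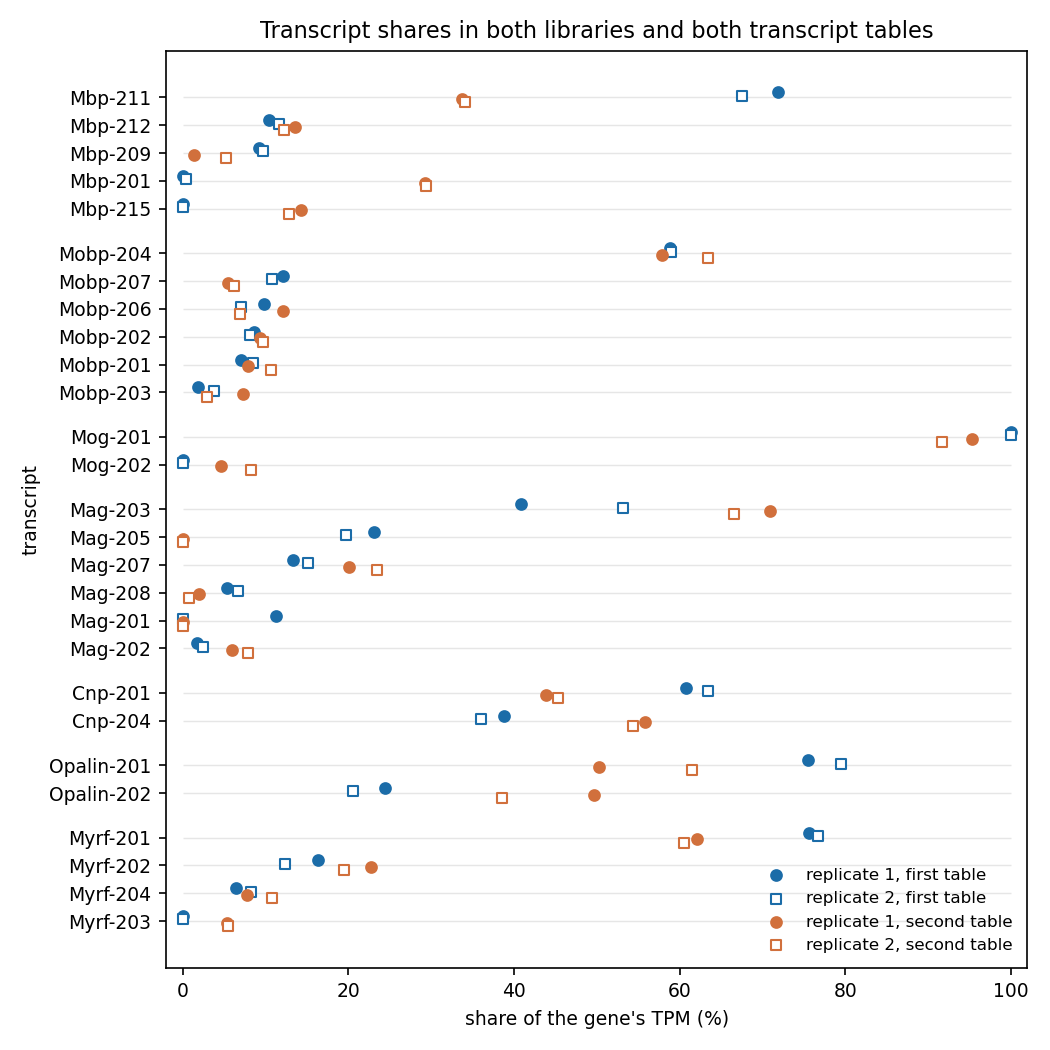
Share of the TPM of its gene (%) for each transcript that reached 5 percent in any library or table, in replicate 1 (filled circles) and replicate 2 (open squares), with the first table in blue and the second in orange; Mal and Cldn11, with a single form, are left out. Circles and squares of a colour lie more than 10 points apart for Mag-203 and Mag-201 in the first table and for both Opalin transcripts in the second, and the widest gaps between colours are at Mbp-211 and Mbp-201.

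Across the 47 transcripts of the 8 genes with several transcripts, shares moved little between the libraries and more between the tables. The median absolute difference between libraries was 0.76 points in the first table and 0.519 points in the second, against 2.04 points between the tables. By more than 10 points, 2 transcripts differed between the libraries in the first table (Mag-203 and Mag-201), 2 in the second (Opalin-201 and Opalin-202), and 10 differed between the tables, with a largest difference of 35.8 points for Mbp-211. In 7 of the 8 genes the same transcript led in both tables and both libraries. The tables also assume different fragment lengths: for transcripts over 1000 bases, the effective length was 99 bases under the full length in the first table and 339 bases under it in the second for replicate 1, which weights short transcripts such as Mbp-209, Mobp-207 and Mag-205 differently. Its part in the differences was not tested.

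The level of Myrf, a factor known to bind the letters CTGGCAC and CTGGTAC, was set beside the sequence just upstream of the other genes. RefSeq gives 9 start regions for 7 of the 9 genes (GRCm38.p6, 250 bases before to 50 after each start), with none here for Mbp and Myrf. On either strand, CTGGCAC was in 5.01% of all 32851 start regions and CTGGTAC in 2.24%, and 7.1% held either. Among the 7 genes, 4 had either in at least 1 start region: CTGGCAC in Mag, Cnp and Opalin, and CTGGTAC in Mog. Counted by region, as the 7.1% was, 5 of the 9 held either, and 2 of those 5 overlap at the same Mag site. The motif is in capitals with the 10 bases on each side that the region holds.
Mag (chr7:30914915-30914941, minus strand): caggcggcccCTGGCACccagggggca
Cnp (chr11:100574848-100574874, plus strand): ccgctgcttcCTGGCACtcaggtttcc
Mog (chr17:37023465-37023491, minus strand): gaaatgcccaGTACCAGgcagccactg
Opalin (chr19:41077064-41077087, minus strand): aagacctgcaGTGCCAGtgagaga
The Cnp motif begins 81 bases before the start and the Mog motif 83 bases before it. For Mag, the same letters lie in the regions of 2 of its 3 starts, at 68 and 9 bases before them, and in Opalin they begin at base 37 of the transcript. A match describes the letters and is not a binding site, and a region without them says nothing about Myrf.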

How the data were processed

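Total RNA, 300 ng per library, was sequenced from hippocampus with ERCC spike-ins. Per the README deposited by the authors, annotation was GENCODE M21 on mm10. Its programs, versions and use of strand were not given in the sources used here. The authors' gene table and first transcript table hold expected counts, TPM and transcript shares in percent. The authors' second transcript table holds estimated counts and TPM. Deposited posterior standard deviations served only to mark genes that share reads.

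Expected counts were rounded and scaled by TMM (edgeR 4.0.16, R 4.3.3); DESeq2 1.42.0 gave alternative size factors. Libraries were compared by an exact two-sided binomial test (scipy 1.17.1), tested on simulated data, with 0.5 counts added for ratios and Clopper-Pearson 95% intervals. The simulated counts held counting error only, so that check cannot show how the test behaves with spread between animals. With 1 library per animal and a single group, no model of spread between animals could be fitted, and p-values measure counting error. The labels give both samples 1 donor identifier but separate replicate numbers and biosamples, and on those they were taken as 2 animals.

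Transcripts with identical coding sequence were summed into coding forms. Exon shares use protein-coding transcripts that span the exon. Sequences come from GENCODE M21 transcripts and RefSeq. Named were all 9 genes, their transcripts at 5 percent or more in any table, the Golli starts, members apart, and the 3 most abundant genes of each list, except a few not reported here; Pmp2, Foxd3, Mpzl2, Cldn2 and Myrfl were added after their values were seen. The genes, lists and motifs were chosen with earlier results of these data known.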

Additional observations from a re-analysis of the deposited data

How the results depend on the processing

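The count of 1 gene apart was also 1 with DESeq2 size factors, total counts, spike-in totals, no count filter, a mean count of at least 100, without genes that share reads and by TPM ratio; it was 0 with the second transcript table and with a 2-fold minimum, and 6 with no minimum fold. Over all genes, 346 were apart, against 113 with a mean count of at least 100, 215 without genes that share reads, 187 at 2-fold and 2078 with no minimum fold. The median log2 ratio of the 9 genes stayed between 0.11 and 0.17 in every scaling run. The median level over the 9 genes, 84.3 TPM, was 109 TPM in the second table and 191 TPM when rescaled to protein-coding genes. Coding form shares moved with the second table and with shares of expected counts: to 33.9% in the second table for Mbp-211, to 12.9% and 12.1% for Mbp-212, to 84.9% and 91.4% for the 81-residue Mobp form, to 68.7% and 72.3% for S-MAG, to 44.6% and 57% for Cnp-201, to 55.9% and 69% for Opalin-201 and to 61.4% and 83.6% for Myrf-201. Exon shares moved likewise, to 19.3% and 7.16% for Mbp exon II, 19.2% and 20.4% for exon VI, 32.7% and 8.47% for the Golli start, and 74.9% and 81.3% for Mag exon 12. The cause was not tested. Leaving out either library gives the other library's value, which for 2 values lies within 1 SD of the mean; the comparison of libraries could not be run on a single library. No paired analysis was possible because there is 1 group.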
